A study of Mus musculus with 8 samples.

Results

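The actin cytoskeleton is represented here by 38 genes that encode actins, the proteins that bind, bundle and contract filaments, the adhesions that anchor them, and the YAP and TEAD proteins with their regulators and target genes. They were chosen by gene symbol, and each of the 38 symbols matched 1 Ensembl gene ID among the 54838 genes of the count table. All 38 had enough counts to be tested, within a set of 19101 tested genes.

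The messenger RNA came from male mouse induced pluripotent stem cells (called ESC in the sample labels), which had been reprogrammed to a state close to that of embryonic stem cells. The labels' protocols name 2 independent clones as the biological replicates. A p-value therefore reflects only how far the 2 samples of a group lay apart, in a spread estimated from all 4 groups together. Every group grew in serum with LIF and a MEK and a GSK3 inhibitor, and the stock cultures were kept on irradiated feeder cells, which are usually fibroblasts. Asynchronous cells were a cycling population without drug treatment, n = 2 libraries. Mitotic cells were passaged to gelatin, exposed for 6 h to 200 ng/ml nocodazole, which depolymerises microtubules and stops cells in mitosis, and shaken off the plate, n = 2. Early G1 and late G1 cells had the same arrest and shake-off, were washed free of the drug and plated on gelatin for 1 h and 3 h, n = 2 each. The synchronised groups therefore differed from asynchronous cells in drug, plating and shake-off as well as in cell cycle state, and these cannot be told apart. The design sets the question of which transcripts differ at the arrest and which change as cells re-enter G1.

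Actin exists as monomers and filaments, and the balance between them reaches the nucleus. Monomeric actin binds the cofactors MRTF-A and MRTF-B, encoded by Mkl1 and Mkl2, and keeps them from serum response factor (SRF). When monomers are used up in filaments, MRTF joins SRF at CArG boxes and transcribes actins, tropomyosins, calponins, vinculin and other parts of the same machinery. YAP and its paralogue TAZ, encoded by Wwtr1, enter the nucleus when cells are spread and under tension and act through TEAD proteins. LATS kinases and angiomotins hold them back. Cells entering mitosis round up, take most of their adhesions apart and build a contractile cortex, and daughter cells spread again in G1.

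Promoter windows from RefSeq (GRCm38.p6, 250 bases before to 50 after a start) were held for 32 of the 38 genes. A CArG box was searched as 2 C, 6 letters that are A or T, and 2 G, a pattern that reads the same way on both strands. It stood in a window of 5 of the 32 genes (15.6%), namely Actg1, Cnn2, Fhl2, Myl9 and Vcl, against 535 of all 32851 windows (1.63%) and 488 of the 27025 genes that have one (1.81%). The TEAD motif was searched as GGAATG on both strands, and so also as CATTCC, and no match of it in these genes overlapped a CArG match. It stood in a window of 15 of the 32 genes (46.9%), against 4817 windows (14.7%) and 4481 genes (16.6%) overall. These are matches of letters, not measured binding. The genes were listed as actin cytoskeleton and SRF or YAP genes, so shares above those of all genes are no independent result. Stretches upstream of the annotated exons are shown for 4 genes with a CArG box and for 2 YAP-pathway genes with the TEAD motif, because their levels below moved in different ways. Capitals mark the matched letters, and each sequence reads 5′ to 3′ on the strand of its gene.
Actg1, chr11:120348543-120348645, minus strand: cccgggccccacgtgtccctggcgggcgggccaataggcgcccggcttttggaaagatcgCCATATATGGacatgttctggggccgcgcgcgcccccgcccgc
Cnn2, chr10:79988484-79988583, plus strand: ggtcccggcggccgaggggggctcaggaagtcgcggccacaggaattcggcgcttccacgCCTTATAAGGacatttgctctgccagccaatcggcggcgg
Myl9, chr2:156775243-156775372, plus strand: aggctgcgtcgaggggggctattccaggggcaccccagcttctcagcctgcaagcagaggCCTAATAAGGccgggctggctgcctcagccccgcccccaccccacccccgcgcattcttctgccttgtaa
Vcl, chr14:20929148-20929240, plus strand: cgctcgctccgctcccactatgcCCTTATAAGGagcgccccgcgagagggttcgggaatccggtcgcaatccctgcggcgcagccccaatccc
Cyr61, chr3:145650023-145650148, minus strand: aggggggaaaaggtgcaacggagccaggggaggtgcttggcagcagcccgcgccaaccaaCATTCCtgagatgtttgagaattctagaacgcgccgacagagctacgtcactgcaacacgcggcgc
Ajuba, chr14:54577760-54577907, minus strand: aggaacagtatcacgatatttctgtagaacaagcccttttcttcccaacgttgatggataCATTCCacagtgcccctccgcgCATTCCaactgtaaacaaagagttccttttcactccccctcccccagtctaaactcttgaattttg

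Total counts ran from 20410621 to 25615244 per library, and levels are given as TMM-scaled CPM, counts relative to a fixed library total, so that 3 counts, taken as the floor, corresponded to 0.116 to 0.152 CPM. The spread between replicates was uneven, with a biological coefficient of variation of 0.291 in asynchronous, 0.183 in mitotic, 0.0506 in early G1 and 0.0417 in late G1 libraries. Markers of pluripotent cells were high throughout, and Pou5f1, a factor that defines them, was at 1472 and 2071 CPM in asynchronous, 2060.4 and 2121 CPM in mitotic, 1955 and 1761 CPM in early G1 and 1848 and 1888 CPM in late G1 libraries. Fibroblast markers summed to 2663 and 2856 CPM in asynchronous, 1151 and 1056 CPM in mitotic and 973 to 999 CPM in G1 libraries. Without Sparc and Fstl1, left out after their values were seen, the sums were 1774 and 1744, 75.3 and 87.4, and 73.0 to 127.7 CPM. Macrophage markers summed to 84.5 and 84.2 CPM in asynchronous, 113 and 97.1 CPM in mitotic and 40.6 to 47.6 CPM in G1 libraries. Without Cd68, also left out after its values were seen, the sums were 20.4 and 31.5, 58.2 and 57.2, and 1.00 to 2.63 CPM. In bulk RNA, fewer cells of a type and less RNA per cell cannot be told apart.

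**Figure D1:**
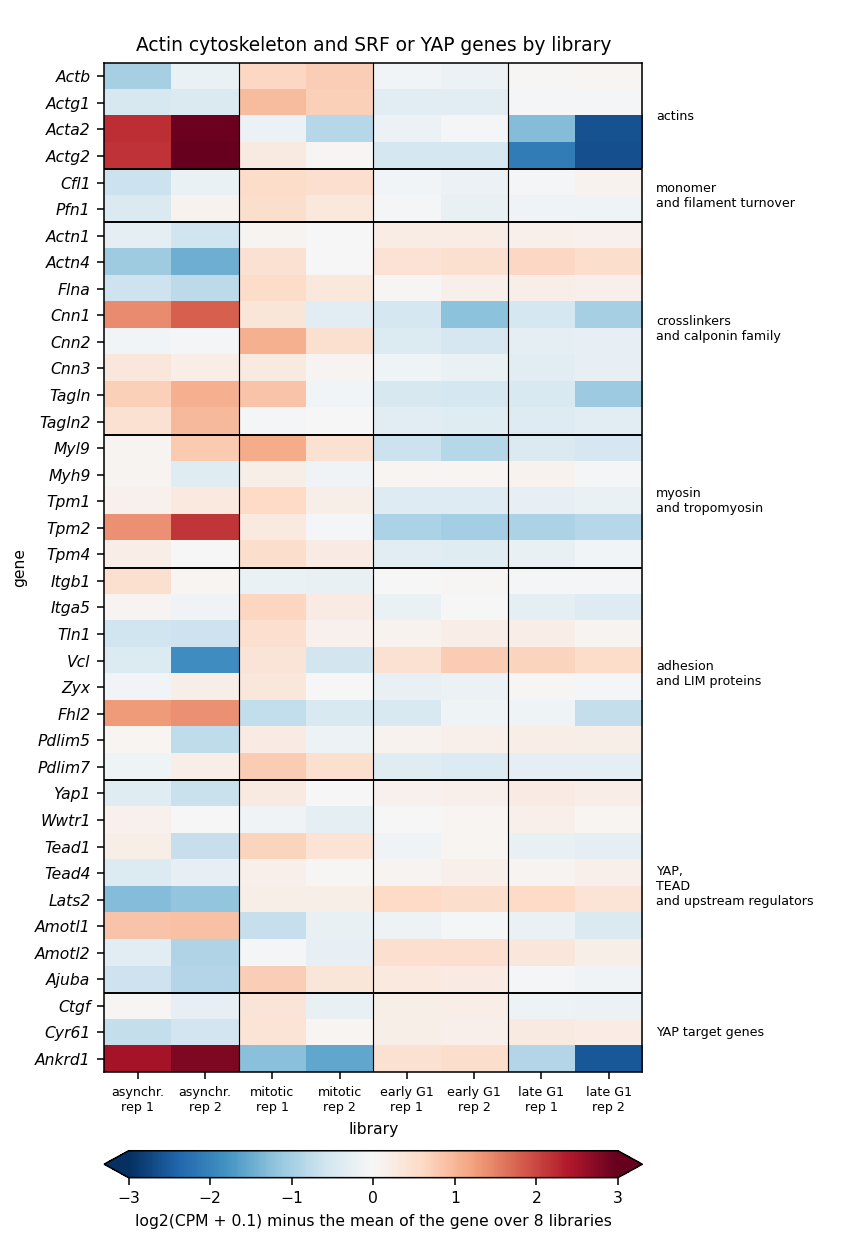
Level of each of the 38 genes (rows, grouped by role) in each of the 8 libraries (columns), as log2(CPM + 0.1) minus the mean of that gene over the libraries, red above and blue below. Actb and Actg1 are highest in the 2 mitotic libraries, while Acta2, Actg2, Tpm2 and Ankrd1 are highest in the 2 asynchronous ones.

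At the arrest, the beta and gamma actin transcripts Actb and Actg1 were higher than in cycling cells and the smooth muscle actins Acta2 and Actg2 were lower. Of the 38 genes, 17 rose and 9 fell in mitotic against asynchronous cells, and 12 passed the test in neither direction (edgeR's quasi-likelihood test, Benjamini-Hochberg adjusted p under 0.05). Among all tested genes 40.7% passed the test, 18.3% rising and 22.4% falling. The share of members that rose, 44.7%, was above that background, and the share that fell, 23.7%, was near it. Their median log2 change was 0.39, against -0.05 over all genes. By role, the rises included Actb and Actg1, the turnover factors Cfl1 and Pfn1, the crosslinkers Flna, Actn1 and Actn4, and 5 of 8 genes for YAP, TEAD and their regulators. The falls included Acta2, Actg2, Cnn1, Tpm2 and Ankrd1.

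Actb and Actg1 encode the beta and gamma actins of nonmuscle filaments. Actb (chr5:142903115-142906754, minus strand, GRCm38 here and below) stood at 1822 and 3157 CPM in asynchronous, 5534 and 6016 CPM in mitotic, 3423 and 3221 CPM in early G1 and 3742 and 3756 CPM in late G1 libraries. Both mitotic libraries lay above the other 6, the 2 asynchronous libraries lay 1.73-fold apart, and the rise at the arrest was 2.32-fold (log2 1.21 ± 0.22 (SE), adjusted p = 0.00395). Actg1 (chr11:120345690-120348542, minus strand) stood at 192 and 198 CPM in asynchronous, 516 and 439 CPM in mitotic, 216 and 211 CPM in early G1 and 260.03 and 261 CPM in late G1 libraries. It had the same order with little spread in the G1 and asynchronous libraries, and rose 2.45-fold at the arrest (log2 1.29 ± 0.12 (SE), adjusted p = 0.000231). Per kb of exon, mean Actb was 929 CPM in asynchronous and 2156 CPM in mitotic cells, against 73.2 and 180 CPM per kb for Actg1. Both genes have close copies and processed pseudogenes, so their counts depend on how shared reads were treated.

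The smooth muscle actins went the other way. Acta2 (chr19:34241090-34255590, minus strand), known from myofibroblasts and vascular muscle, stood at 75.5 and 126 CPM in asynchronous, 14.4 and 8.98 CPM in mitotic, 14.4 and 15.9 CPM in early G1 and 6.52 and 2.58 CPM in late G1 libraries. Both asynchronous libraries lay above all 6 synchronised ones, and the fall at the arrest was 8.62-fold (log2 -3.11 ± 0.42 (SE), adjusted p = 0.00109). Actg2 (chr6:83512905-83536265, minus strand), the enteric smooth muscle actin, stood at 10.6 and 24.2 CPM in asynchronous, 2.78 and 2.33 CPM in mitotic, 1.56 and 1.55 CPM in early G1 and 0.456 and 0.281 CPM in late G1 libraries. Its groups also did not overlap, and it fell 6.76-fold (log2 -2.76 ± 0.39 (SE), adjusted p = 0.00131). At the mean of each group, Acta2 was at 46.0 CPM per kb of exon in asynchronous and 5.33 CPM per kb in mitotic cells, far below Actb in both. Over the same step 18 of 22 tested fibroblast markers fell and 1 rose. Col1a1, a collagen chain abundant in fibroblasts, went from 509 and 554 CPM to 7.59 and 10.1 CPM. Of 5 smooth muscle markers 2 fell: Myh11, a smooth muscle myosin, went from 3.19 and 4.21 CPM to 1.56 and 1.94 CPM and Des, desmin, from 75.3 and 93.7 CPM to 32.3 and 24.5 CPM. The part of these other cells in the fall of the smooth muscle type genes was not tested.

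**Figure D2:**
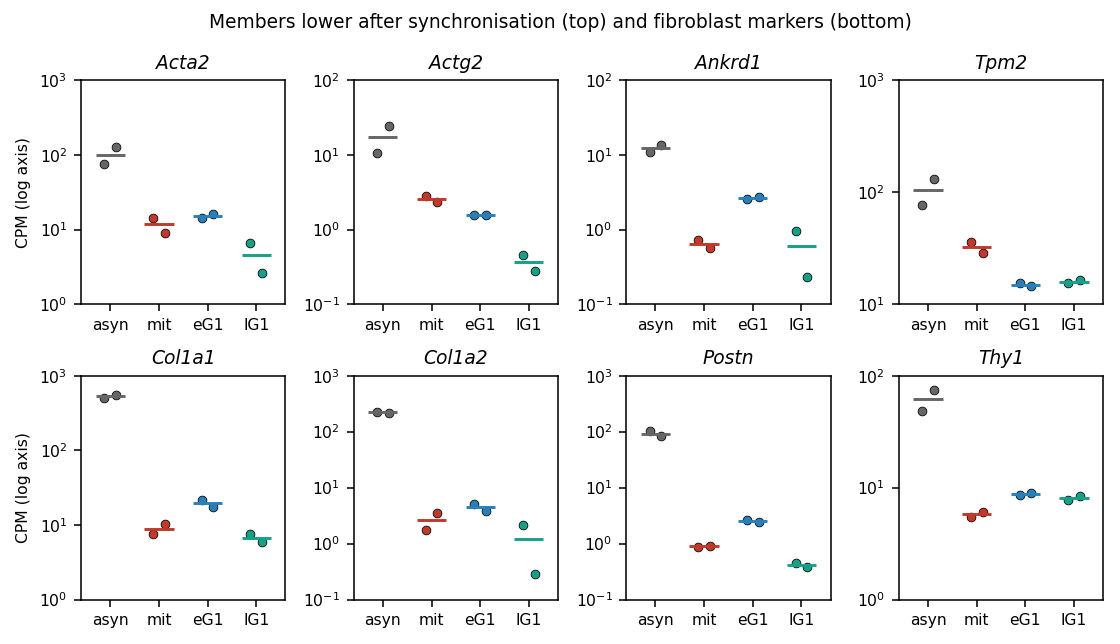
Level in CPM (log axis) of 4 members (top row, Acta2, Actg2, Ankrd1 and Tpm2) and of 4 fibroblast markers (bottom row, Col1a1, Col1a2, Postn and Thy1) in asynchronous (asyn), mitotic (mit), early G1 (eG1) and late G1 (lG1) cells, each point a library and each line the mean of 2. In all 8 panels both asynchronous libraries lie above the 6 synchronised ones, and Ankrd1, Col1a1 and Postn are higher in early G1 than in mitotic cells.

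Both factors of filament turnover in the set rose at the arrest. Cfl1, cofilin, which severs filaments, stood at 545 and 751 CPM in asynchronous and 1257 and 1223 CPM in mitotic libraries, and Pfn1, profilin, which loads monomers, at 644 and 937 CPM in asynchronous and 1243 and 1075 CPM in mitotic libraries. Mitotic libraries were above asynchronous ones for both genes. Cfl1 rose 1.91-fold (log2 0.94 ± 0.16 (SE), adjusted p = 0.00284), and Pfn1 rose 1.47-fold (log2 0.55 ± 0.18 (SE), adjusted p = 0.0392). Opposite-strand exons of Snx32 cover 16.5% of the exon bases of Cfl1, and the strand setting of the counting is not given in the sources used here.

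Filament crosslinkers of nonmuscle cells rose as well, while the calponin and transgelin families were split. Actn4, alpha-actinin 4, stood at 357 and 269.9 CPM in asynchronous, 1031 and 751 CPM in mitotic, 1010.3 and 1045 CPM in early G1 and 1141 and 1085 CPM in late G1 libraries. The 6 synchronised libraries were all above the asynchronous ones, and it rose 2.84-fold (log2 1.51 ± 0.19 (SE), adjusted p = 0.000721). Flna, filamin A, which joins filaments into networks and ties them to integrins, stood at 492 and 439.9 CPM in asynchronous, 1117 and 940.4 CPM in mitotic, 779 and 836 CPM in early G1 and 874 and 841 CPM in late G1 libraries and rose 2.21-fold (log2 1.14 ± 0.13 (SE), adjusted p = 0.00051). Its mitotic libraries were the highest of the 8. Actn1, a paralogue of Actn4, rose by a log2 difference of 0.47 ± 0.13.

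Of the 3 calponins, which bind along filaments, Cnn2 rose, Cnn1 fell and Cnn3 passed no test at the arrest. Cnn2, the form found in many nonmuscle cells, stood at 99.5 and 103 CPM in asynchronous, 219.8 and 148 CPM in mitotic, 79.0 and 74.3 CPM in early G1 and 86.1 and 89.1 CPM in late G1 libraries. Its mitotic libraries lay above all others but 1.49-fold apart, and the rise was 1.81-fold (log2 0.86 ± 0.18 (SE), adjusted p = 0.00689). Cnn1, the smooth muscle form, went from 15.8 and 20.4 CPM in asynchronous to 7.54 and 4.62 CPM in mitotic cells, a 2.97-fold fall (log2 -1.57 ± 0.32 (SE), adjusted p = 0.00643). Cnn3 differed by a log2 value of -0.10 ± 0.12, with overlapping groups, and opposite-strand exons of Gm42928 cover 17.7% of its exon bases. Among the transgelins, small calponin relatives, Tagln2 fell by 1.69-fold (log2 -0.76 ± 0.17 (SE), adjusted p = 0.00835), and Tagln, a smooth muscle and fibroblast gene, differed by -0.43 ± 0.31 on the log2 scale with its mitotic libraries at 30.4 and 15.8 CPM. Opposite-strand exons of Gm48529 cover 62.4% of the exon bases of Tagln, so its values are uncertain.

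Of the 5 myosin and tropomyosin genes, 1 passed the test at the arrest, Tpm2, which encodes beta-tropomyosin. It stood at 77.0 and 130.2 CPM in asynchronous, 36.3 and 28.8 CPM in mitotic, 15.3 and 14.5 CPM in early G1 and 15.3 and 16.4 CPM in late G1 libraries and fell 3.18-fold (log2 -1.67 ± 0.24 (SE), adjusted p = 0.00146), with no overlap between the groups. Tpm1 and Tpm4, which coat stress fibre filaments in nonmuscle cells, differed by 0.19 ± 0.15 and 0.29 ± 0.14. Myl9, a regulatory light chain of contractile myosin, differed by 0.35 ± 0.27. Myh9, the heavy chain of nonmuscle myosin IIA, was at 673 and 494 CPM in asynchronous and 718 and 585 CPM in mitotic libraries, with overlapping groups.

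At adhesions, the adaptor talin rose and the integrin beta 1 subunit fell. Tln1, talin, which links integrins to actin and switches them on, stood at 159.5 and 156 CPM in asynchronous, 343 and 264 CPM in mitotic, 259 and 277 CPM in early G1 and 278 and 257 CPM in late G1 libraries. Its asynchronous libraries were the lowest, and it rose 1.92-fold (log2 0.94 ± 0.14 (SE), adjusted p = 0.00185). Itgb1, the beta subunit shared by most matrix integrins, was at 234 and 174 CPM in asynchronous and 146 and 143 CPM in mitotic libraries and fell 1.41-fold (log2 -0.50 ± 0.15 (SE), adjusted p = 0.0279), while Itga5, its partner in the fibronectin receptor, rose 1.39-fold (log2 0.47 ± 0.16 (SE), adjusted p = 0.0443). Pdlim7, a PDZ and LIM protein of actin filaments, rose 1.50-fold (log2 0.58 ± 0.15 (SE), adjusted p = 0.017). Fhl2, a LIM-only coregulator, stood at 7.41 and 7.91 CPM in asynchronous and 1.77 and 2.16 CPM in mitotic libraries and fell 3.89-fold (log2 -1.96 ± 0.27 (SE), adjusted p = 0.00125). Vinculin (Vcl), zyxin (Zyx) and Pdlim5 did not pass the test, and Vcl had overlapping groups with 44.2 and 16.1 CPM in asynchronous and 77.2 and 40.0 CPM in mitotic libraries.

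Within the YAP axis, the transcripts of YAP, 2 TEAD factors and the inhibitory kinase LATS2 all rose. Yap1, the coactivator, stood at 132 and 105 CPM in asynchronous, 203 and 169 CPM in mitotic, 185 and 189 CPM in early G1 and 200.02 and 194 CPM in late G1 libraries. The 6 synchronised libraries lay above both asynchronous ones, and its rise was 1.57-fold (log2 0.65 ± 0.15 (SE), adjusted p = 0.00962). The rises of the DNA-binding partners were 1.67-fold for Tead1 (log2 0.74 ± 0.24 (SE), adjusted p = 0.0412) and 1.35-fold for Tead4 (log2 0.43 ± 0.13 (SE), adjusted p = 0.0324). Lats2, the kinase that marks YAP for retention in the cytoplasm and is itself a YAP target, stood at 3.07 and 3.30 CPM in asynchronous, 8.60 and 8.63 CPM in mitotic, 11.6 and 11.0 CPM in early G1 and 11.7 and 10.2 CPM in late G1 libraries. It was low everywhere but its groups were far apart, and it rose 2.71-fold (log2 1.44 ± 0.18 (SE), adjusted p = 0.000724). A gene on the same strand, Gm49361, shares 42.4% of the exon bases of Lats2, so its counts depend on how shared reads were treated. Ajuba, a LIM protein that binds LATS kinases, stood at 150.1 and 126 CPM in asynchronous, 383 and 297 CPM in mitotic, 282 and 273 CPM in early G1 and 226 and 215 CPM in late G1 libraries and rose 2.46-fold (log2 1.30 ± 0.15 (SE), adjusted p = 0.000619). Amotl1, an angiomotin that holds YAP at junctions, fell 2.49-fold from 41.1 and 42.0 CPM to 14.1 and 19.3 CPM (log2 -1.31 ± 0.18 (SE), adjusted p = 0.00121). Amotl2 and Wwtr1 did not pass the test.

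The 3 YAP target genes in the set did not move together. Cyr61, also called Ccn1, a secreted matrix protein, stood at 61.8 and 67.9 CPM in asynchronous, 136 and 106 CPM in mitotic, 115 and 113 CPM in early G1 and 123 and 119.7 CPM in late G1 libraries. Both asynchronous libraries were below all others, and it rose 1.86-fold (log2 0.90 ± 0.14 (SE), adjusted p = 0.00214). Ctgf, or Ccn2, its close relative, had overlapping groups at 109 and 88.5 CPM in asynchronous and 138 and 90.9 CPM in mitotic libraries and did not pass the test. Opposite-strand exons of Gm15270 cover 23.2% of the exon bases of Ctgf. Ankrd1, a nuclear ankyrin-repeat protein of muscle and a widely used YAP readout, stood at 10.9 and 13.6 CPM in asynchronous, 0.716 and 0.561 CPM in mitotic, 2.60 and 2.70 CPM in early G1 and 0.958 and 0.235 CPM in late G1 libraries. It fell 19.0-fold (log2 -4.25 ± 0.45 (SE), adjusted p = 0.000401), the largest fall among the 38 genes at this step. Its mitotic libraries held 17 and 13 counts. Fibroblast markers fell at this step too, 18 of 22 tested with 1 rising, and the part of such cells in the fall of Ankrd1 was not tested.

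Macrophage markers were higher at the arrest too, 4 of 9 tested rising and 0 falling by edgeR, with 5 at an unadjusted p under 0.05 and 4 and 0 by DESeq2, and their part in the rises was not tested. Of 10 tested pluripotent cell markers 5 rose and 1 fell at the arrest (50% and 10%, against 18.3% and 22.4% of all genes). Their median log2 change was 0.46, so a share of rises above that of all genes was not particular to the members. Of the 26 calls, 10 of the 17 rises (Actb, Actg1, Actn4, Ajuba, Cfl1, Cnn2, Cyr61, Flna, Lats2 and Tln1) and 7 of the 9 falls (Acta2, Actg2, Amotl1, Ankrd1, Cnn1, Fhl2 and Tpm2) held under all 15 alternative fits. The other 9 calls (Actn1, Itga5, Itgb1, Pdlim7, Pfn1, Tagln2, Tead1, Tead4 and Yap1) were each lost without mitotic replicate 1, with adjusted p between 0.0560 and 0.255, and 5 of them without mitotic replicate 2. Without either early G1 library 5 calls were lost, without either late G1 library 6, and without asynchronous replicate 2 only that of Itga5. Without mitotic replicate 1, 10 members rose and 7 fell.

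**Figure D3:**
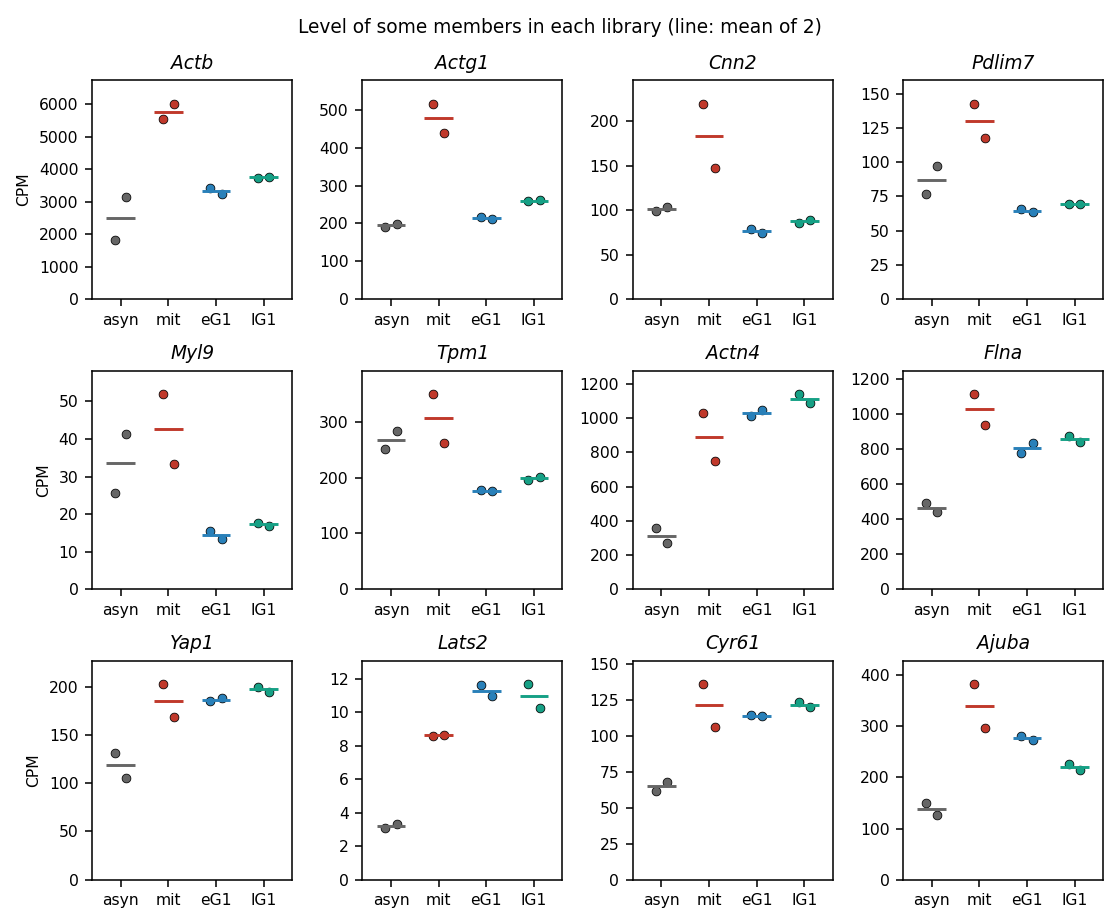
Level in CPM of 12 members in asynchronous (asyn), mitotic (mit), early G1 (eG1) and late G1 (lG1) cells, each point a library and each line the mean of 2, every axis starting at 0. Actb, Actg1, Cnn2, Pdlim7, Myl9 and Tpm1 are lower in G1 than in mitotic cells, while Actn4, Yap1, Lats2 and Cyr61 stay above the asynchronous libraries.

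By early G1, 1 h after release, part of the actin machinery was already lower than at the arrest. In early G1 against mitotic cells 7 of the 38 genes fell, 1 rose and 30 did not pass the test, where 4.63% of all tested genes passed it, 1.42% falling and 3.21% rising. Their median log2 change was -0.31, against -0.01 over all genes. The falls were those of Actg1, Cnn2, Myl9, Pdlim7, Tpm1, Tpm2 and Tpm4, and the rise was that of Ankrd1. None of the 8 calls was made without early G1 replicate 1 or without early G1 replicate 2, whereas 15 members fell without asynchronous replicate 1 and 15 without asynchronous replicate 2.

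Actg1 returned close to its asynchronous level, a fall of 2.23-fold (log2 -1.16 ± 0.12 (SE), adjusted p = 0.00355). Actb was lower in both early G1 libraries than in both mitotic ones but did not pass the test (log2 -0.80 ± 0.22 (SE), adjusted p = 0.0813). Contractile genes fell as well. Myl9 stood at 25.6 and 41.4 CPM in asynchronous, 52.0 and 33.3 CPM in mitotic, 15.5 and 13.4 CPM in early G1 and 17.8 and 17.0 CPM in late G1 libraries, both G1 groups below both other groups, and it fell 2.96-fold (log2 -1.56 ± 0.28 (SE), adjusted p = 0.0225). The 3 tropomyosin genes among the members fell: Tpm2 by 2.18-fold (adjusted p = 0.0432), Tpm1 by 1.73-fold (adjusted p = 0.0296) and Tpm4 by 1.67-fold (adjusted p = 0.0303). Tpm1 went from 349 and 263 CPM in mitotic to 177 and 176 CPM in early G1 libraries, below its asynchronous 252 and 284 CPM. Tpm4 went from 171 and 139.7 CPM to 94.7 and 91.4 CPM, and Myh9 again showed no difference past the test (0.02 ± 0.17 on the log2 scale).

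Cnn2 fell 2.40-fold (log2 -1.26 ± 0.18 (SE), adjusted p = 0.0112) to levels below the asynchronous libraries. Pdlim7 stood at 76.7 and 96.8 CPM in asynchronous, 143 and 118 CPM in mitotic, 65.5 and 63.3 CPM in early G1 and 69.7 and 69.3 CPM in late G1 libraries, and fell 2.02-fold (log2 -1.01 ± 0.15 (SE), adjusted p = 0.0137). Of the genes with a CArG box in the sequences above, Actg1, Cnn2 and Myl9 fell at this step. Pdlim7, Tpm1, Tpm2 and Tpm4 fell too and had no CArG box in their windows. Vcl, with the same 10 letters as Cnn2, did not pass the test and was at 77.2 and 40.0 CPM in mitotic and 81.3 and 100.2 CPM in early G1 libraries. Fhl2, whose windows hold a CArG box too, was at 1.77 and 2.16 CPM and 2.17 and 2.74 CPM. Opposite-strand exons of Ap3m1 cover 25.5% of the exon bases of Vcl. Macrophage markers fell over the same step, 8 of 9 tested, their sum going from 113 and 97.1 CPM to 46.2 and 40.6 CPM, and their part in the falls was not tested.

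Ankrd1 was the 1 member to rise by early G1 with edgeR, 4.12-fold (log2 2.04 ± 0.46 (SE), adjusted p = 0.047). It went from 0.716 and 0.561 CPM to 2.60 and 2.70 CPM, and stood at 0.958 and 0.235 CPM in late G1. DESeq2 called 2 members higher at this step, Ankrd1 and Amotl2, and 11 lower. Amotl2 went from 134 and 116 CPM in mitotic to 197 and 197 CPM in early G1 libraries. Cyr61 and Ctgf, the other genes of the YAP target group, did not pass edgeR's test. They differed by -0.09 ± 0.14 and 0.07 ± 0.20 on the log2 scale. Fibroblast markers moved in the same direction as Ankrd1 at this step, 4 of 22 tested rising and 0 falling by edgeR, with 10 at an unadjusted p under 0.05 and 5 and 0 by DESeq2. Postn, periostin, went from 0.885 and 0.907 CPM to 2.64 and 2.40 CPM and then to 0.456 and 0.375 CPM, and the part of such cells in the rise of Ankrd1 was not tested. Beyond the 2 early G1 libraries, the calls depended on other samples too. Late G1 and asynchronous libraries are not part of this comparison and act on its calls through the shared fit, which takes its spread from all groups. Without early G1 replicate 1 and 2 the log2 changes moved little, to -1.18 and -1.14 for Actg1 and -1.67 and -1.46 for Myl9. Without mitotic replicate 1 that of Myl9 was -1.21. Without mitotic replicate 1 only Actg1 kept its call, without mitotic replicate 2 those of Ankrd1, Tpm2 and Tpm4 were lost, and without late G1 replicate 1 or 2 those of 5 and 4 falling genes were lost.

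Between early and late G1, no member passed the test in either direction with edgeR, and 0 of all 19101 genes did (0%). At an unadjusted p under 0.05, 4 members differed, and 724 of all genes. DESeq2 called 2 members lower, Acta2 and Ankrd1, and 0 higher, with 5 genes higher and 21 lower over the whole table. A fit of the early and late G1 groups alone called 5 members higher and 7 lower, with 619 and 874 over all genes. The lowest p values belonged to Ankrd1, Actg2 and Acta2, with log2 differences of -2.14 ± 0.47, -2.05 ± 0.53 and -1.73 ± 0.43. In late G1 Ankrd1 and Actg2 were near the floor. Actg1 was at 216 and 211 CPM in early and 260.03 and 261 CPM in late G1, a small difference in the direction of the mitotic level (0.28 ± 0.12 on the log2 scale). The median log2 difference of the 38 genes was -0.0070.

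In late G1, 3 h after release, 10 members were lower than at the arrest and none was higher, by edgeR, in late G1 against mitotic cells. Over all genes 9.48% passed the test, 4.04% lower and 5.43% higher. At an unadjusted p under 0.05, 19 members differed, and DESeq2 called 14 lower and 0 higher. The 10 were Actg1, Actg2, Ajuba, Cnn2, Itga5, Myl9, Pdlim7, Tpm1, Tpm2 and Tpm4. This comparison shares its mitotic libraries with that of early G1. Macrophage markers were lower in it as well, 7 of 9 tested, and their part in the result was not tested.

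Myl9 was 2.45-fold lower in late G1 than at the arrest (log2 -1.30 ± 0.27 (SE), adjusted p = 0.0265), Cnn2 2.10-fold (log2 -1.07 ± 0.18 (SE), adjusted p = 0.0125) and Tpm2 2.05-fold (log2 -1.04 ± 0.24 (SE), adjusted p = 0.0364). Actg1 was 1.83-fold lower (log2 -0.87 ± 0.12 (SE), adjusted p = 0.00663) and its late G1 libraries lay above the asynchronous ones. The adhesion receptor Itga5 stood at 110.2 and 96.9 CPM in asynchronous, 164 and 124 CPM in mitotic, 91.8 and 104 CPM in early G1 and 85.5 and 80.3 CPM in late G1 libraries. Its late G1 libraries were the lowest of the 8, and it was 1.73-fold lower than at the arrest (log2 -0.79 ± 0.16 (SE), adjusted p = 0.0229). Ajuba had its late G1 libraries below its early G1 ones and was 1.54-fold lower (log2 -0.63 ± 0.15 (SE), adjusted p = 0.0405). None of the 10 calls was made without late G1 replicate 1, late G1 replicate 2 or mitotic replicate 1. Without mitotic replicate 2 those of Actg2, Ajuba, Tpm2 and Tpm4 were lost, and without either early G1 library those of 6 genes were. Without asynchronous replicate 1 or 2, in contrast, 17 and 18 members fell.

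**Figure D4:**
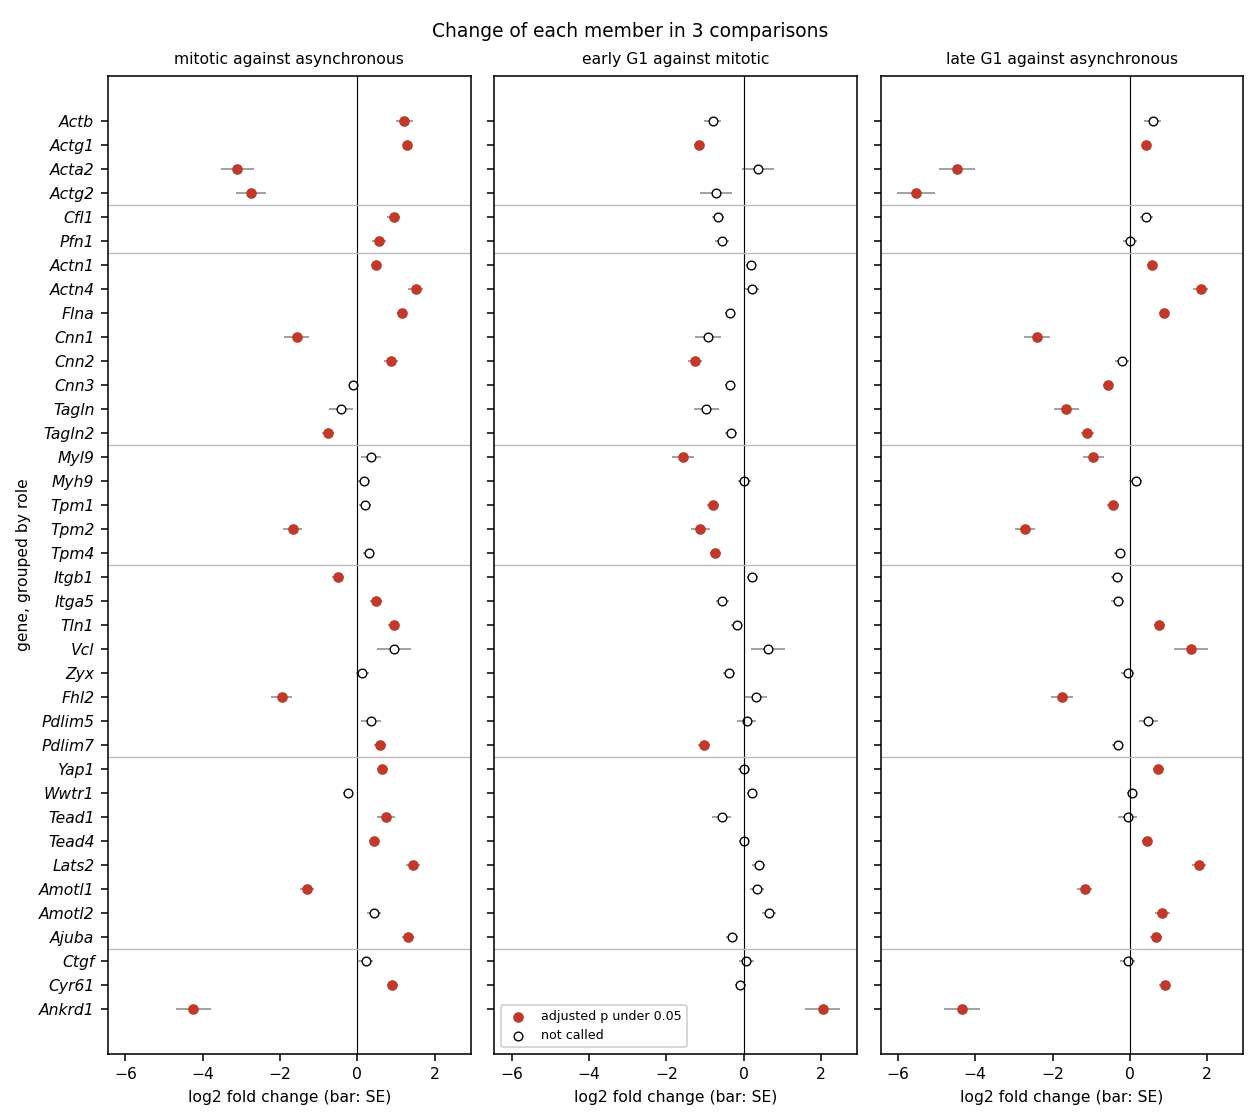
Log2 fold change (point) and its standard error (bar) of each of the 38 genes in 3 comparisons, filled red where the adjusted p was under 0.05 and open where not, with genes in the order of the colour map of levels. In mitotic against asynchronous cells 17 genes are red on the right and 9 on the left, in early G1 against mitotic cells 1 and 7, and in late G1 against asynchronous cells 12 and 12.

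Against the cycling population, late G1 cells had higher transcripts of the crosslinkers Actn1, Actn4 and Flna, of talin and of Yap1, and lower ones of Acta2, Actg2, Myl9 and 2 tropomyosins. In late G1 against asynchronous cells 12 members were higher, 12 lower and 14 past the test in neither direction, where 48.7% of all genes passed the test, 22.7% higher and 26.0% lower. The shares of the members were 31.6% in each direction, and the median log2 difference was -0.06, against -0.03 over all genes. The 12 higher genes were Actg1, Actn1, Actn4, Ajuba, Amotl2, Cyr61, Flna, Lats2, Tead4, Tln1, Vcl and Yap1, and the 12 lower ones were Acta2, Actg2, Amotl1, Ankrd1, Cnn1, Cnn3, Fhl2, Myl9, Tagln, Tagln2, Tpm1 and Tpm2. This comparison shares its asynchronous libraries with that of the arrest, so the values of a gene in both are not independent.

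Actn4 was 3.55-fold higher in late G1 than in asynchronous cells (log2 1.83 ± 0.19 (SE), adjusted p = 0.00027), and Flna 1.84-fold (log2 0.88 ± 0.13 (SE), adjusted p = 0.00112). Lats2 was 3.44-fold higher (log2 1.78 ± 0.18 (SE), adjusted p = 0.000243), Cyr61 1.87-fold (log2 0.90 ± 0.14 (SE), adjusted p = 0.0016), Yap1 1.66-fold (log2 0.74 ± 0.15 (SE), adjusted p = 0.00445) and Tln1 1.69-fold (log2 0.76 ± 0.14 (SE), adjusted p = 0.00362). The call of each of these 6 genes held in all 15 alternative fits. Actg1 was still 1.34-fold higher (log2 0.42 ± 0.12 (SE), adjusted p = 0.0197), while Actb, with its 2 asynchronous libraries apart, did not pass the test (log2 0.59 ± 0.22 (SE), adjusted p = 0.0549). Vcl and Amotl2, which had not passed the test at the arrest, were higher too. Vcl, which reinforces talin under tension, was 2.98-fold higher (log2 1.57 ± 0.45 (SE), adjusted p = 0.0198), and Amotl2, an angiomotin and YAP target, stood at 112 and 73.7 CPM in asynchronous, 134 and 116 CPM in mitotic, 197 and 197 CPM in early G1 and 175 and 158 CPM in late G1 libraries and was 1.79-fold higher (log2 0.84 ± 0.19 (SE), adjusted p = 0.0082). All 4 G1 libraries lay above both mitotic ones for both genes.

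The lower genes were led by the smooth muscle actins. Actg2 was 46.2-fold lower in late G1 (log2 -5.53 ± 0.49 (SE), adjusted p = 0.000153), Acta2 22.1-fold (log2 -4.47 ± 0.46 (SE), adjusted p = 0.000272), Ankrd1 20.3-fold (log2 -4.34 ± 0.46 (SE), adjusted p = 0.000308) and Tpm2 6.53-fold (log2 -2.71 ± 0.25 (SE), adjusted p = 0.000194). Fibroblast markers were lower with them, 18 of 22 tested, and 7 of 9 macrophage markers were lower as well. The part of these cells was not tested. Of 10 tested pluripotent cell markers 5 were higher and 1 lower (50% and 10%). Cnn3, Myl9, Tagln and Tpm1 were lower here and had not passed the test at the arrest, and the difference between the comparisons was not tested. Tagln stood at 27.4 and 34.8 CPM in asynchronous, 30.4 and 15.8 CPM in mitotic, 12.0 and 11.6 CPM in early G1 and 12.0 and 7.79 CPM in late G1 libraries and was 3.13-fold lower (log2 -1.65 ± 0.33 (SE), adjusted p = 0.00429). Cnn3, a calponin of nonmuscle cells, stood at 707 and 641 CPM in asynchronous, 673 and 582 CPM in mitotic, 503 and 479 CPM in early G1 and 447 and 464 CPM in late G1 libraries and was 1.48-fold lower (log2 -0.56 ± 0.12 (SE), adjusted p = 0.00612).

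Without late G1 replicate 1, 9 of these 24 calls were lost (Actg1, Actn1, Ajuba, Amotl2, Cnn3, Myl9, Tead4, Tpm1 and Vcl), with adjusted p from 0.0576 to 0.202. Without late G1 replicate 2 the same genes other than Ajuba and Amotl2 lost theirs. Leaving out asynchronous replicate 2 ended the calls of Myl9, Tpm1 and Vcl, and leaving out either early G1 library those of Tead4 and Tpm1. The numbers of higher and lower members without late G1 replicate 1 were 6 and 9.

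In none of the 5 comparisons did 5 of the genes pass the test. Myh9 ranged from 494 to 718 CPM over the 8 libraries, Zyx from 23.2 to 34.5 CPM, Wwtr1 from 49.7 to 66.6 CPM, Ctgf from 88.5 to 138 CPM and Pdlim5 from 33.5 to 67.4 CPM. Missing the threshold does not show equal levels: Wwtr1 differed by a log2 value of -0.25 ± 0.13 at the arrest and Pdlim5 by 0.35 ± 0.25.

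The wider pathway was described with lists of other genes in it, chosen with earlier results of these data known, so their counts are no independent support. Srf itself, the factor at CArG boxes, stood at 34.8 and 31.4 CPM in asynchronous, 104 and 85.4 CPM in mitotic, 93.0 and 91.2 CPM in early G1 and 108 and 106 CPM in late G1 libraries. All 6 synchronised libraries lay above the asynchronous ones, and it was 2.86-fold higher at the arrest (log2 1.52 ± 0.14 (SE), adjusted p = 0.000212) and 3.23-fold higher in late G1 (log2 1.69 ± 0.14 (SE), adjusted p = 0.000116). Its cofactor gene Mkl1 stood at 21.1 and 22.4 CPM in asynchronous, 33.8 and 31.6 CPM in mitotic, 20.1 and 20.8 CPM in early G1 and 17.9 and 16.8 CPM in late G1 libraries: it rose at the arrest (log2 0.59 ± 0.13 (SE), adjusted p = 0.00979) and fell again by early G1 (log2 -0.68 ± 0.13 (SE), adjusted p = 0.0332). Mkl2 passed the test in none of the 5 comparisons, with levels of 18.7 and 13.5 CPM in asynchronous, 18.5 and 17.0 CPM in mitotic, 16.4 and 17.3 CPM in early G1 and 17.7 and 14.4 CPM in late G1 libraries. Of 15 tested genes in the list of SRF, its cofactors and immediate early targets, 4 rose and 3 fell at the arrest (26.7% and 20%, against 18.3% and 22.4% of all genes). By early G1 4 rose and 1 fell (26.7% and 6.67%, against 3.21% and 1.42% of all genes). Late G1 against mitotic cells had 6 of the list higher and 1 lower (40% and 6.67%, against 5.43% and 4.04%). Late G1 against asynchronous cells had 8 higher and 1 lower (53.3% and 6.67%, against 22.7% and 26.0%). Among the immediate early transcription factors, Fosb rose at the arrest, Egr1 rose at the arrest (3.29-fold) and again by early G1 (12.7-fold, adjusted p = 0.000978), and Fos and Junb fell at the arrest and rose by early G1. Fos went from 10.4 and 8.21 CPM in asynchronous to 4.47 and 4.92 CPM in mitotic and 9.92 and 9.74 CPM in early G1 libraries.

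Other targets of MRTF and SRF also moved both ways. Of 16 tested, 5 rose and 2 fell at the arrest (31.2% and 12.5%, against 18.3% and 22.4% of all genes). By early G1 0 rose and 2 fell (0% and 12.5%, against 3.21% and 1.42%). In late G1 4 were higher and 4 lower than in asynchronous cells. The last shares, 25% and 25%, were near the 22.7% and 26.0% of all genes. For the step into early G1, 5 of the 16 differed at an unadjusted p under 0.05, and DESeq2 called 0 higher and 3 lower. Csrp1, a LIM protein of actin bundles, stood at 167 and 187 CPM in asynchronous, 385 and 290.5 CPM in mitotic, 199 and 185 CPM in early G1 and 217 and 222 CPM in late G1 libraries. It rose 1.91-fold at the arrest (log2 0.93 ± 0.15 (SE), adjusted p = 0.00244) and fell 1.76-fold by early G1 (log2 -0.82 ± 0.15 (SE), adjusted p = 0.028). Myl12a, a nonmuscle relative of Myl9, rose 1.61-fold and then fell 1.52-fold, with adjusted p = 0.00498 and 0.0436.

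At the arrest, where 18.3% of all genes rose and 22.4% fell, the machinery that nucleates and remodels filaments rose more often than it fell. Of 17 genes of the Arp2/3 complex, which seeds branched filaments, and of its WAVE and WASP activators, 8 rose and 1 fell, among them Arpc5 (0.84 ± 0.12), Wasl (0.86 ± 0.15) and the falling Arpc1b (-0.74 ± 0.13, log2). These shares were 47.1% and 5.88%. By early G1 0 of the 17 passed the test in either direction by edgeR and by DESeq2, with 2 at an unadjusted p under 0.05. At this step 3.21% of all genes rose and 1.42% fell, so 0 of 17 was near that share. In late G1 against asynchronous cells 10 were higher and 2 lower (58.8% and 11.8%, against 22.7% and 26.0% of all genes). Of 17 formins, capping and monomer-binding proteins, 6 rose and 2 fell at the arrest (35.3% and 11.8%). By early G1 0 of these passed the test by edgeR, with 4 at an unadjusted p under 0.05, and DESeq2 called 0 higher and 1 lower. Dstn, destrin, a cofilin relative, stood at 235 and 161 CPM in asynchronous, 578 and 438 CPM in mitotic, 419.9 and 402 CPM in early G1 and 487 and 518 CPM in late G1 libraries and rose 2.57-fold (log2 1.36 ± 0.20 (SE), adjusted p = 0.00152). Gsn, gelsolin, a severing protein abundant in fibroblasts, fell 4.85-fold from 74.3 and 91.2 CPM to 19.0 and 15.1 CPM (log2 -2.28 ± 0.24 (SE), adjusted p = 0.00036).

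Among 21 other focal adhesion genes, 9 rose and 2 fell at the arrest (42.9% and 9.52%, against 18.3% and 22.4% of all genes). By early G1 0 rose and 4 fell (0% and 19%, against 3.21% and 1.42%), with 7 at an unadjusted p under 0.05. DESeq2 called 1 higher and 4 lower by early G1. Enah, a filament elongation factor, stood at 327 and 327 CPM in asynchronous, 620.2 and 610.1 CPM in mitotic, 441 and 445 CPM in early G1 and 429 and 432 CPM in late G1 libraries: it rose 1.88-fold (log2 0.91 ± 0.10 (SE), adjusted p = 0.000503) and then fell 1.39-fold (log2 -0.47 ± 0.10 (SE), adjusted p = 0.0418). Trip6, a zyxin relative, rose 1.90-fold and fell 1.71-fold, with adjusted p = 0.00218 and 0.0291.

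Among 18 tested Hippo pathway genes other than the members, 5 rose and 1 fell at the arrest. The shares were 27.8% and 5.56%, against 18.3% and 22.4% of all genes. Vgll4, which competes with YAP for TEAD, stood at 8.04 and 4.92 CPM in asynchronous, 25.0 and 17.1 CPM in mitotic, 22.2 and 19.9 CPM in early G1 and 25.6 and 24.0 CPM in late G1 libraries and rose 3.23-fold (log2 1.69 ± 0.27 (SE), adjusted p = 0.00202). Mob1b, the coactivator of LATS kinases, rose at the arrest by 1.69-fold and again by early G1 by 1.69-fold, with adjusted p = 0.00848 and 0.0426. Tead2, a TEAD factor of early embryos, fell 1.44-fold at the arrest (log2 -0.52 ± 0.11 (SE), adjusted p = 0.00758), where Tead1 and Tead4 had risen. Of 16 tested other YAP targets, 6 rose and 6 fell at the arrest, so this list had no common direction. The shares were 37.5% in each direction, against 18.3% rising and 22.4% falling among all genes. The falls with the smallest p were those of Ccdc80, 52.6-fold (log2 -5.72 ± 0.32 (SE), adjusted p = 3.87e-05), and Rbms3, 51.9-fold (log2 -5.70 ± 0.72 (SE), adjusted p = 0.000803). Over the same step 18 of 22 tested fibroblast markers fell and 1 rose, and the part of such cells in these 2 falls was not tested. Nt5e, an ecto-enzyme, stood at 0.597 and 0.456 CPM in asynchronous, 7.88 and 4.71 CPM in mitotic, 9.59 and 11.2 CPM in early G1 and 10.3 and 8.73 CPM in late G1 libraries and rose 11.7-fold (log2 3.55 ± 0.34 (SE), adjusted p = 0.000259). Nuak2, a kinase that acts on myosin phosphatase, fell 2.04-fold at the arrest and rose 1.90-fold by early G1, with adjusted p = 0.00178 and 0.0191.

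The call of Egr1 by early G1 was lost in no alternative run. By early G1, the calls of Mkl1, Fos, Junb, Csrp1, Myl12a, Enah, Trip6, Mob1b and Nuak2 were each lost without early G1 replicate 1, without early G1 replicate 2 and without mitotic replicate 1, with adjusted p up to 0.372. At the arrest, the call of Fosb was lost without mitotic replicate 1 and that of Tead2 without mitotic replicate 2. With the mitotic and asynchronous groups fitted alone, the arrest calls of Arpc1b, Egr1, Fos, Junb, Mkl1, Mob1b and Tead2 were lost, with adjusted p from 0.0511 to 0.103.

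**Figure D5:**
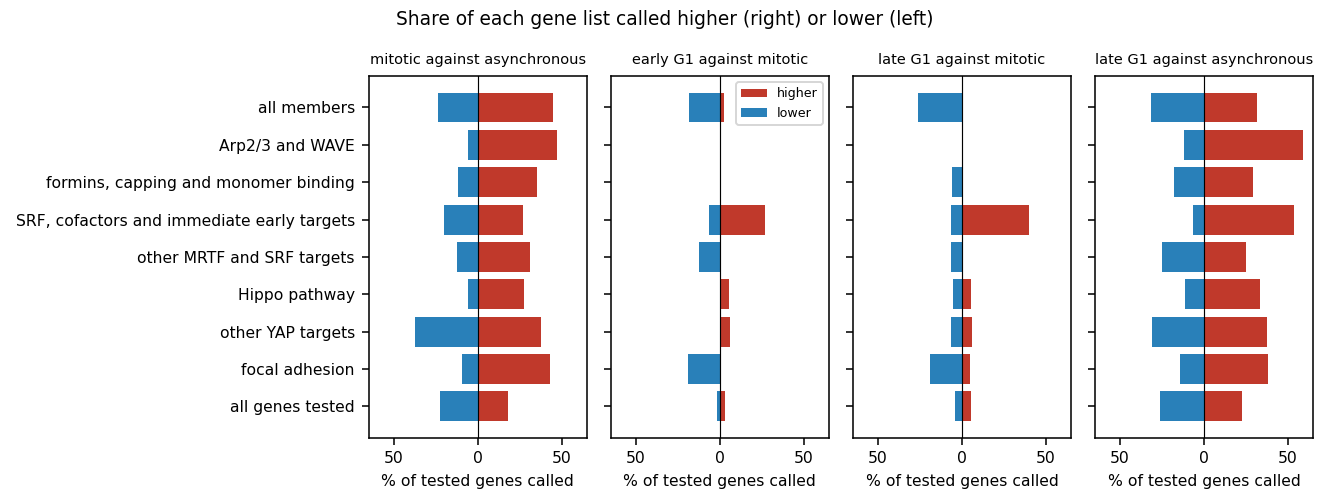
Share in percent of the tested genes in each list called higher (red, right) or lower (blue, left) in 4 comparisons, with the 38 members at the top and all 19101 tested genes at the bottom. In mitotic against asynchronous cells the members stand at 44.7% higher and 23.7% lower against 18.3% and 22.4% for all genes, and the shares in early G1 against mitotic cells are small for most lists.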

How the data were processed

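The deposited table held unnormalised read counts, made by the authors, for 54838 Ensembl genes in 8 libraries. Libraries were made with a stranded poly(A) kit and read as single 50-base reads, per the labels' protocols. Reads were handled with TopHat2, SAMtools, HTSeq and the build mm10, per the submitters' processing notes. Not given in the sources used here are their versions and roles, the annotation release and the strand setting. Only asynchronous cells are named in the labels' account of RNA extraction.

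Gene IDs were matched to symbols, positions (1-based) and exon lengths with GENCODE M21 (GRCm38), and promoter sequences came from RefSeq. In R 4.3.3, edgeR 4.0.16 was fitted to all 8 libraries, grouped by title, after filterByExpr (minimum count 10, 19101 genes) with TMM scaling, no replicate block and 4 residual degrees of freedom. Genes were called at a two-sided Benjamini-Hochberg adjusted p under 0.05 over all tested genes, separately in each of 5 comparisons; adjusted p is edgeR's throughout unless DESeq2 is named. SE is the log2 change divided by the root of the F statistic, and folds come from the fitted log2 change. The fit was run on simulated counts with the same spread in every group, which do not cover the uneven spread of these data. Alternatives were DESeq2 1.42.0, another scaling, no count filter, a replicate block, each pair of groups alone, a term for replicate 1, and each library left out. Floors cover counting error only. The members and lists were chosen with earlier results of these data known. All 38 members could be named; of the other lists, the 3 called genes with the smallest p in each direction, Srf, Mkl1, Mkl2 and defining markers could be. Results for 1 further list are not reported here.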

Additional observations from a re-analysis of the deposited data

How the results depend on the processing

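Over 2850 recomputed values of the members, 2467 kept their side of the threshold (74 of them with the opposite sign, called in neither fit), 223 passed it newly, 156 no longer passed it and 4 reversed. The reversals were Myl9 at the arrest (-0.31) and Pfn1 in late G1 against asynchronous cells (-0.23) with replicate 1 of the mitotic and asynchronous groups left out together, an alternative chosen after seeing the data, and Tead1 in late G1 against asynchronous cells, at 0.44 in that fit and from -0.42 (without asynchronous replicate 2) to 0.44 (without asynchronous replicate 1) with 1 library left out. The cause was not tested. Leaving out both replicate 1 libraries left 1 mitotic and 1 asynchronous library. The calls of that fit, here and below, therefore rest on the spread of the G1 groups alone. Over 1635 values of the named pathway genes, 1445 kept their side, 7 passed newly, 183 no longer passed and 0 reversed.

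The count of members that rose at the arrest was 10 with the 2 groups alone. For the step into early G1, members that rose and fell numbered 2 and 11 with DESeq2, 3 and 14 without the count filter, 2 and 14 with the 2 groups alone, 8 and 13 with a term for replicate 1, and 11 and 16 without both those libraries. Between early and late G1, they numbered 0 and 2 with DESeq2, 0 and 3 without the filter, and 5 and 7 with the 2 groups alone and also without both libraries. In late G1 against mitotic cells, they numbered 1 and 18 without the filter, 1 and 16 with the 2 groups alone, 5 and 18 with the term, and 8 and 17 without both libraries. Leaving out 1 library at a time gave 10 to 22 rises and 7 to 10 falls at the arrest, 0 to 2 and 0 to 15 by early G1, 0 and 0 between the G1 states, 0 to 2 and 0 to 18 in late G1 against mitotic cells, and 6 to 16 and 9 to 14 in late G1 against asynchronous cells. Over all genes the step into early G1 had 613 rises and 272 falls, against 3242 and 2640 with the term for replicate 1 and 1704 and 1055 with the 2 groups alone.

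Replicate numbers did not pair the libraries throughout. Over 10455 genes the correlation of their deviations between groups ran from -0.43 (early G1 and asynchronous) to 0.64 (mitotic and asynchronous). With a term for replicate 1 of those 2 groups, 21 members rose and 10 fell at the arrest. With a replicate block, 17 members rose and 9 fell at the arrest, 1 and 7 by early G1, 0 and 0 between the G1 states, 0 and 10 in late G1 against mitotic cells (Tpm4 lost, Tagln gained) and 14 and 12 in late G1 against asynchronous cells, while Enah, Mob1b and Myl12a lost their calls by early G1. The 2 libraries per group, and asynchronous replicates that differ more than the others, limit every comparison. Leaving out a library of a group outside a comparison moves its calls through the shared fit, not through the levels compared. Depth limits Ankrd1 and Actg2 most, with 5 and 6 counts in their lowest libraries.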
